A study of Mus musculus with 4 samples.

Results

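CXCR3 is a chemokine receptor coupled to the inhibitory G protein Gi, and it is carried mainly by activated T cells of the Th1 type, cytotoxic T cells and NK cells. Its ligands CXCL9, CXCL10 and CXCL11 are CXC chemokines without the glutamate-leucine-arginine motif that marks the neutrophil-attracting members of the family. Interferon-gamma from T cells and NK cells induces all of them in macrophages, dendritic cells, endothelium and other tissue cells, and CXCL10 is also induced by type I interferon. In transplanted organs the axis is known for drawing effector lymphocytes into the graft.

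The 4 mouse genes Cxcl9, Cxcl10, Cxcl11 and Cxcr3 were taken by symbol from a count table of 54752 gene IDs, and each matched 1 ID. The table came from RNA sequencing of mouse abdominal aortic grafts collected 4 weeks after transplantation, with ribosomal RNA removed. The ALLO group, allografts undergoing chronic rejection according to the series title, and the ISO group, whose abbreviation is not expanded in the labels, had 2 libraries each (n = 2 per group throughout). No strain, sex, age, donor or recipient is given in the labels. Nor do they tie each library to its own animal, and the p-values below therefore reflect the spread between these samples alone, some of which may be technical.

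The libraries held 17532344 to 20194854 counts. Counts of 1 to 20 were even in 68.0% to 74.6% of cases, a pattern that arises when both mates of a read pair are counted. Xist, the RNA of the inactive X chromosome, had 10647 counts in ISO replicate 1 and no more than 8 elsewhere, while Ddx3y on the Y chromosome had 0 counts there and 2105 to 2312 elsewhere. The smooth muscle genes Acta2 and Myh11 were present in every library, with 12556 and 33901 counts of Acta2 in ALLO and 253774 and 236332 in ISO. All 6 smooth muscle markers fell in ALLO. Of 16498 genes that passed the filter on low counts, 5469 passed an adjusted p of 0.05 in edgeR's quasi-likelihood test, of which 3032 were higher and 2437 lower in ALLO. Scaling by library size alone shifted the median log2 change of the tested genes by 0.19 and gave 3546 higher and 1867 lower.

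All 4 genes passed the filter, and all 4 rose in ALLO grafts, where 18.4% of all tested genes rose. Cxcl9, Cxcl10 and Cxcr3 were about 98.3-, 44.1- and 44.2-fold higher, and Cxcl11 had no counts in ISO. In each of the 4 genes both ALLO libraries lay above both ISO libraries, a pattern that 37.1% of tested genes showed. In whole tissue, more cells of a kind and more RNA per cell cannot be told apart.

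Cxcl9 encodes CXCL9, also called MIG, the ligand most dependent on interferon-gamma. The gene (ENSMUSG00000029417.9, protein coding, 4 exons) lies on the minus strand of mouse chromosome 5, from 92321347 to 92328079 on mm10. Cxcl9 had 9168 and 10890 counts in ALLO replicates 1 and 2, against 78 and 87 counts in ISO replicates 1 and 2. The replicates of each group were close to each other and the groups were far apart. Scaled for library size and composition (normalized CPM), Cxcl9 averaged 483 ± 16.4 CPM in ALLO and 4.91 ± 0.488 CPM in ISO (SD, n = 2 each). The log2 change was 6.62 ± 0.26 (SE, edgeR adjusted p = 0.00214).

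Cxcl10 encodes CXCL10, also called IP-10, which is induced by interferon-gamma, type I interferon and NF-kappaB signals. The gene (ENSMUSG00000034855.13, protein coding, 4 exons in the main coding transcript) lies 18559 bases from Cxcl9 on the same strand, at 92346638 to 92348889. Cxcl10 had 1504 and 1648 counts in ALLO, against 36 and 22 counts in ISO. It averaged 76.0 ± 1.75 CPM in ALLO and 1.72 ± 0.55 CPM in ISO (SD, n = 2 each), and the ALLO replicates differed by less than the ISO replicates did as a share of their mean. The log2 change was 5.46 ± 0.30 (SE, edgeR adjusted p = 0.00216). Of the exonic bases of Cxcl10, 133 (5.91%) are shared with Art3, a gene on the opposite strand whose counts fell in ALLO, and whether counting used strand is not given in the sources used here.

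Cxcl11 encodes CXCL11, also called I-TAC, in mouse strains with an intact gene. The C57BL/6 strain carries a frameshift in it, and the strain of these mice is not in the labels. GENCODE M21 types the gene as a polymorphic pseudogene and RefSeq, on the C57BL/6J reference, as a transcribed pseudogene, so counts here are transcripts and say nothing of protein. The gene (ENSMUSG00000060183.6) lies 10655 bases from Cxcl10 on the same strand, at 92359544 to 92365485. Cxcl11 had 30 and 86 counts in ALLO and none in ISO, and it was the least counted of the 4 genes in every library. Taking 6 counts (3 read pairs) per ISO library as a floor, Cxcl11 was at least 7.64-fold higher in ALLO (edgeR adjusted p = 0.0184). The bound was 10.95-fold with ALLO replicate 2 alone and 4.32-fold with ALLO replicate 1 alone, where the call was lost (edgeR adjusted p = 0.0748). Of the exonic bases of Cxcl11, 41.7% are shared with the opposite-strand pseudogene Gm2673, which had 0 counts in every library, so the Cxcl11 count is uncertain. None of the shared bases lies in its shorter transcript of 1581 bases.

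Cxcr3 encodes the receptor. The gene (ENSMUSG00000050232.6, protein coding, 2 exons) lies on the minus strand of the X chromosome, from 101731535 to 101734269, and shares no exonic base with another gene. Cxcr3 had 766 and 752 counts in ALLO, against 26 and 2 counts in ISO replicates 1 and 2. The ALLO replicates were alike, whereas nearly all ISO counts came from replicate 1. It averaged 36.7 ± 3.70 CPM in ALLO and 0.820 ± 0.990 CPM in ISO (SD, n = 2 each), with a log2 change of 5.46 ± 0.90 (SE, edgeR adjusted p = 0.0118). The fold rests on which ISO library is used. Against ISO replicate 1 alone it was 23.7, and against ISO replicate 2 alone, with 2 counts, the ratio of counts was 303 (95% counting interval 54.2 to 11988, exact binomial, on read pairs). ISO replicate 1 was the library with Xist counts, and the X-linked neighbours Ogt, Taf1 and Nhsl2 had 2986, 893 and 752 counts there and 2765, 1087 and 897 in ISO replicate 2. The part of the X chromosome in the Cxcr3 difference between the ISO libraries was not tested.

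**Figure D1:**
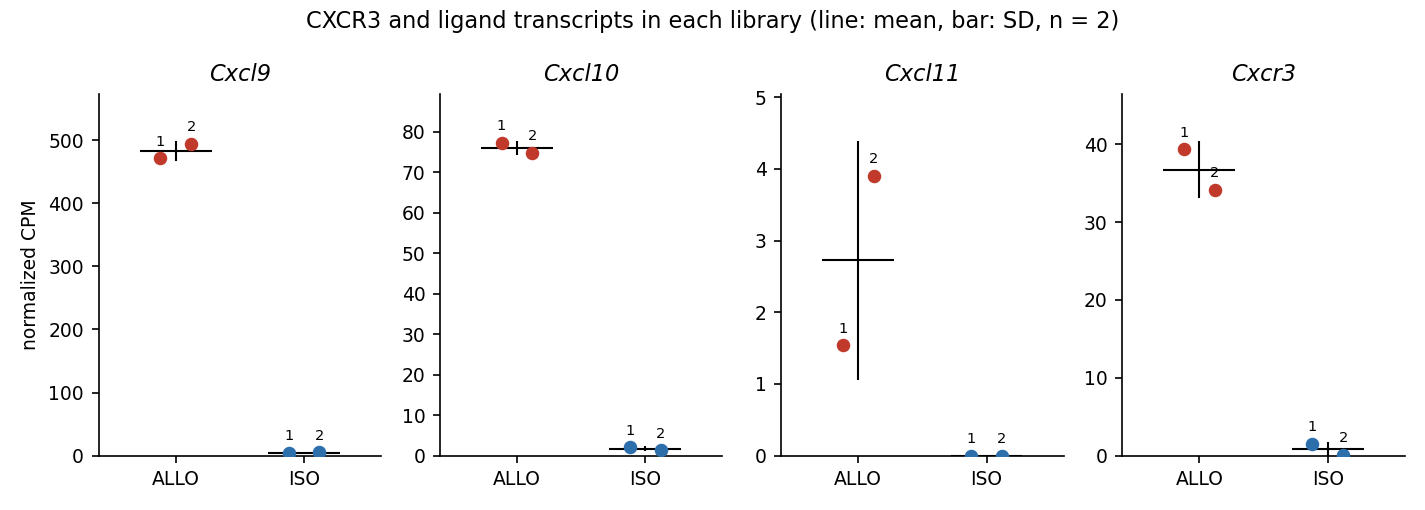
Normalized CPM of each gene in the 2 ALLO and 2 ISO libraries, with points numbered by replicate, a line at the mean and a bar of 1 SD cut off at 0. The ALLO points lie above the ISO points in every panel. Among the ALLO points, those of Cxcl11, at 1.54 and 3.90 CPM, lie farthest apart relative to their mean.

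Cxcl9 and Cxcl10 are neighbours that moved together, so the 250 bases before their transcription starts are shown, read 5′ to 3′ on the gene's strand from RefSeq on GRCm38.p6. Capitals mark matches to any of 4 motifs searched on both strands, an ISRE-like motif (GAAA, any 2 bases, GAAA), the GAS element TTCNNNGAA, a kappaB-like motif (GGGA, any 4 bases, CC) and the TATA box TATAAA.
Cxcl9, chr5:92328080-92328329, minus strand: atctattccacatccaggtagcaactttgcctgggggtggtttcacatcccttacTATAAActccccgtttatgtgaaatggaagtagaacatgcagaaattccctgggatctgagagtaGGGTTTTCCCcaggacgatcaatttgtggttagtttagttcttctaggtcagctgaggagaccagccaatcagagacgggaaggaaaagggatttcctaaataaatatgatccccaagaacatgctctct
Cxcl10, chr5:92348890-92349139, minus strand: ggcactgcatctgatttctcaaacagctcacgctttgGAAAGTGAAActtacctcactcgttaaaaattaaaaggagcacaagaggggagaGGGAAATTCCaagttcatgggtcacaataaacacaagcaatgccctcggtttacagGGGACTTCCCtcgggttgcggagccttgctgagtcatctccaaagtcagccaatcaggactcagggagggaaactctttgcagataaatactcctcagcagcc

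The Cxcl10 window held 1 ISRE-like match, 213 to 204 bases before the start, and kappaB-like matches at 159 to 150 and 103 to 94 bases, the second of which reads as a match on both strands. The Cxcl9 window held a kappaB-like match on the opposite strand at 130 to 121 bases and a TATA box match at 195 to 190 bases. No GAS match was found in either window. Of 32851 promoter windows of that length in the table, 2.98% held the ISRE-like motif, 7.02% the GAS motif, 17.6% the kappaB-like motif and 12.4% the TATA box, and 0.387% held both the ISRE-like and the kappaB-like motif. The Cxcr3 window held none of the 4, and Cxcl11 was not in the table. That Cxcr3 window, from 101734148 to 101734397, lay partly inside the gene as counted here, which ends at 101734269. These matches are letters in a window and do not show binding.

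The rise was not shared by the whole stretch of chromosome 5 around the ligands. Of 11 other protein-coding genes within 250 kb of a ligand gene that could be tested, Naaa rose. Art3, Fam47e and Stbd1 fell, and 7 did not pass. Over all tested genes, 18.4% rose and 14.8% fell. Naaa, which encodes a lysosomal amidase of lipid signals, had 3111 and 5260 counts in ALLO and 535 and 625 in ISO (log2 change 2.53 ± 0.28, SE, edgeR adjusted p = 0.00506). Art3, whose span holds both Cxcl10 and Cxcl11, had 388 and 469 counts in ALLO and 2159 and 1257 in ISO (log2 change -2.29 ± 0.29, SE, edgeR adjusted p = 0.00670). The gene nearest to Cxcl9 on its other side, Sdad1, had 808 and 820 counts in ALLO and 413 and 508 in ISO, a difference that did not pass (edgeR adjusted p = 0.126).

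**Figure D2:**
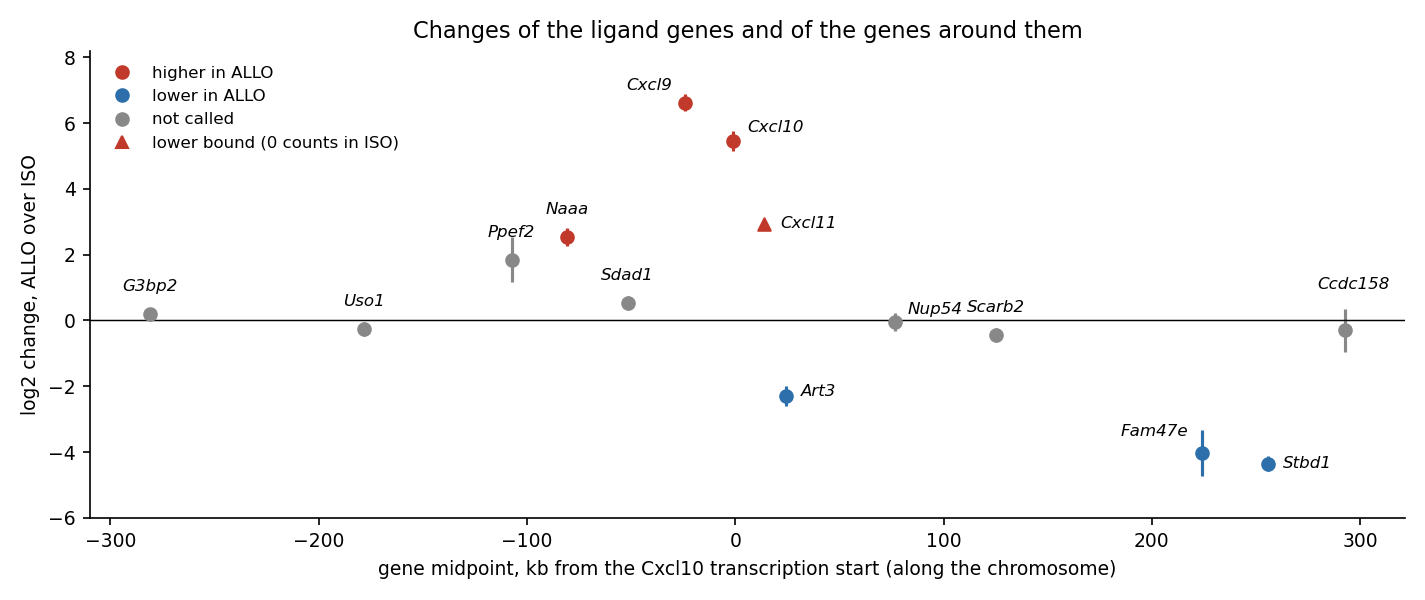
The log2 change between ALLO and ISO (y axis, bars of 1 SE) for tested protein-coding genes and the ligand genes, by distance in kb from the Cxcl10 start (x axis). Cxcl9 at 6.62 and Cxcl10 at 5.46 stand above the surrounding genes, Naaa is at 2.53 and Art3 at -2.29, and Cxcl11 is drawn at its lower bound.

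Levels were compared between genes per length, as TPM, a share of the library scaled by the exonic lengths in the deposited table. In ALLO the order was Cxcl9 (362 and 517 TPM), Cxcl10 (79.6 and 105), Cxcr3 (52.8 and 62.2) and Cxcl11 (0.943 and 3.25), and no neighbours in that order overlapped. In ISO, with these lengths, Cxcl9 was again highest at 4.26 and 5.56 TPM. Cxcl10, at 2.63 and 1.88, overlapped there with Cxcr3, at 2.47 and 0.223. The deposited Cxcl10 length of 2252 bases includes introns, while its main coding transcript has 1094. Its TPM, its overlap with Cxcr3 and its ranks therefore depend on the length used. With main coding transcripts, the ratio of Cxcl9 to Cxcl10 in ISO replicate 1 was 0.820, so Cxcl9 was not highest there. By mean TPM in ALLO, Cxcl9 ranked 287 of all 54752 gene IDs, Cxcl10 ranked 1382 and Cxcr3 ranked 2280, whereas in ISO the same genes ranked 11027, 13097 and 14410.

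The balance of the ligands was also read within each library, where scaling between libraries plays no part. Per length, Cxcl9 transcripts outnumbered those of Cxcl10 by 4.55 (95% counting interval 4.21 to 4.92) and 4.93 (4.58 to 5.32) in ALLO, against 1.62 (0.904 to 3.00) and 2.95 (1.63 to 7.32) in ISO. The ALLO ratios were above the ISO ratios, by 1.12 on the log2 scale. An exact permutation test, two-sided, gave p = 0.333, the smallest p that 2 libraries per group allow. The level of the ratio depends on the length used, since the Cxcl10 row of 2252 bases spans the whole gene including introns. With the main coding transcripts of 2889 and 1094 bases it was 2.31 and 2.50 in ALLO and 0.820 and 1.498 in ISO. With the deposited lengths, Cxcl9 to Cxcl11 was 384 and 159 in ALLO, and Cxcl10 to Cxcl11 was 84.5 and 32.3. With main coding transcripts, and 1581 bases for Cxcl11, these were 167 and 69.3, and 72.5 and 27.7. In ISO, where Cxcl11 was at 0, the floor gives Cxcl9 to Cxcl11 ratios of at least 16.4 and 18.2 with the deposited lengths. With the transcript lengths the bounds were 7.11 and 7.94. Of the 3 ligand pairs only Cxcl9 with Cxcl10 could be compared between the groups.

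Among the CXC chemokines the ligands of CXCR3 took a larger share in ALLO. Of the summed TPM of 15 CXC chemokine genes, Cxcl9, Cxcl10 and Cxcl11 together made up 40.5% and 39.1% in ALLO, against 2.05% and 4.27% in ISO. Cxcl9 had the highest TPM of the 15 in both ALLO libraries, at 33.1% and 32.3% of the sum, against 1.27% and 3.19% in ISO. Cxcl12, the CXCR4 ligand, had the highest TPM in both ISO libraries, with 22.8% and 21.8% of the sum in ALLO and 31.8% and 49.1% in ISO. Cxcl12 itself rose in ALLO (17100 and 19870 counts, against 5311 and 3630 in ISO, edgeR adjusted p = 0.0109). The shares, and the place of Cxcl9 above Cxcl12 in ALLO, depend on the deposited lengths. Without division by length Cxcl12 was above Cxcl9 in both ALLO libraries, at 879 and 902 CPM against 471 and 494 CPM.

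Of the other 12 CXC chemokine genes, 5 rose (Cxcl1, Cxcl5, Cxcl12, Cxcl14 and Cxcl16), none fell, 5 did not pass and 2 were too low to test. Their median log2 change was 1.42, beside 0.03 over all tested genes. Cxcl16, a membrane-bound chemokine that binds CXCR6, had 3455 and 6500 counts in ALLO and 268 and 193 in ISO. Cxcl5, a neutrophil attractant, had 201 and 383 counts in ALLO and 2 and 0 in ISO. Cxcl2, Cxcl3 and Cxcl13 had 238, 31 and 366 counts in ISO replicate 1 and 0, 0 and 4 in ISO replicate 2, so their ISO values depended on the library. Without ISO replicate 1, 8 of the 12 rose.

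**Figure D3:**
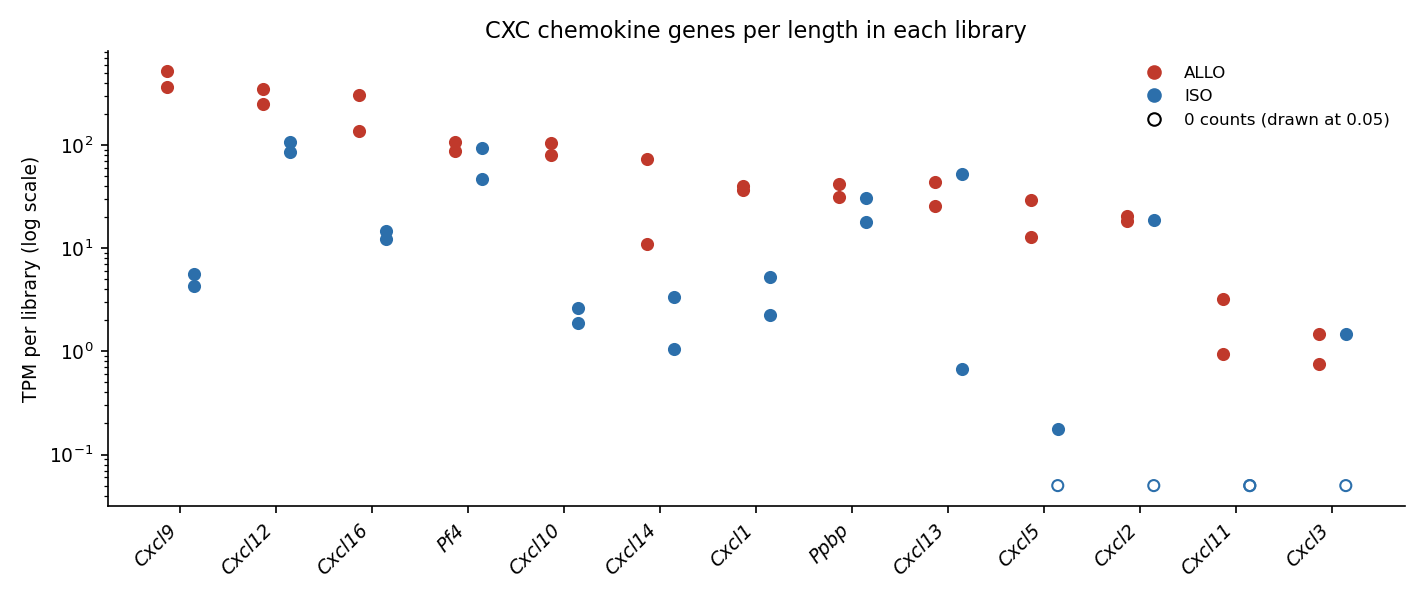
TPM of 13 CXC chemokine genes (log scale), 1 point per library, ordered by mean TPM in ALLO, with open circles for 0 counts. Cxcl9 has the highest ALLO points, at 362 and 517 TPM, and Cxcl9 and Cxcl10 are well apart between the groups, while Pf4 and Ppbp are close.

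Of 5 other CXC receptor genes, Cxcr2, Cxcr4 and Cxcr6 rose, Cxcr5 did not pass (edgeR adjusted p = 0.201) and Cxcr1 was too low to test. Cxcr6, a receptor of tissue T cells, had 1300 and 1257 counts in ALLO and 18 and 2 in ISO, the same imbalance between the ISO libraries as Cxcr3. Cxcr4 had 2072 and 2502 counts in ALLO and 68 and 33 in ISO (log2 change 5.20 ± 0.38, SE, edgeR adjusted p = 0.00287).

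Genes of the signals that induce the ligands, 1 inhibitor among them, were mostly higher. Of 18 genes for interferon and TNF signals and their transduction, 13 rose, none fell, 4 did not pass and 1 was too low to test. Their median log2 change was 1.68. The number that rose differed in 10 of the 13 alternatives that kept all libraries. It was 9 when tested against a 1.5-fold change and 15 in DESeq2's Wald test. Ifng, which encodes interferon-gamma, had 63 and 57 counts in ALLO and none in ISO, which with 6 counts per ISO library as the floor is at least 8.17-fold higher (edgeR adjusted p = 0.0108). Ifnb1, which encodes interferon-beta, had 0 counts in all 4 libraries. Irf1, a transcription factor that acts on interferon-responsive promoters, had 3126 and 4365 counts in ALLO and 604 and 699 in ISO (log2 change 2.21 ± 0.22, SE, edgeR adjusted p = 0.00444). Tnf, which acts with interferon-gamma on Cxcl9 and Cxcl10, had 152 and 174 counts in ALLO and 39 and 2 in ISO and did not pass (edgeR adjusted p = 0.111). Rela, a subunit of NF-kappaB, had 2031 and 2859 counts in ALLO and 2405 and 2479 in ISO (edgeR adjusted p = 0.302). Socs1, the feedback inhibitor of JAK signalling, rose, with 295 and 1085 counts in ALLO and 118 and 122 in ISO.

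Of 17 genes induced by interferon-gamma, 13 rose and 4, Gbp3, Gbp4, Gbp7 and Ido1, did not pass, with a median log2 change of 2.45. The number that rose was 8 without ALLO replicate 1 and 8 without ALLO replicate 2. Ciita, the activator of MHC class II genes, had a log2 change of 5.02 ± 0.47 (SE, edgeR adjusted p = 0.00395), and Nlrc5, its counterpart for MHC class I, 3.33 ± 0.31 (SE, edgeR adjusted p = 0.00395). The summed level of this list was 3430 and 3488 CPM in ALLO and 330 and 859 CPM in ISO, so ISO replicate 2 had more of these transcripts than ISO replicate 1. Cxcl9, at 5.25 CPM in ISO replicate 2 and 4.56 CPM in replicate 1, differed little between the ISO libraries.

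Genes whose products trim or take up chemokines, not all of them for the ligands of CXCR3, also changed. Of 8 such genes 5 rose, 1 fell and 2, Mmp8 and Ackr4, did not pass. The number that rose was 3 without ALLO replicate 1 and 3 without ISO replicate 2. Dpp4, a peptidase that trims the amino end of CXCL9, CXCL10 and CXCL11, had 711 and 651 counts in ALLO and 37 and 23 in ISO (log2 change 4.21 ± 0.35, SE, edgeR adjusted p = 0.00340). Ackr3, the atypical receptor that binds CXCL11 and CXCL12, was the member that fell, with 748 and 686 counts in ALLO and 1699 and 1299 in ISO (log2 change -1.35 ± 0.22, SE, edgeR adjusted p = 0.0112). Ackr1, which carries chemokines across venular endothelium, had 127 and 111 counts in ALLO and 35 and 23 in ISO, and rose. The metalloproteinase genes Mmp9 and Mmp12 rose as well, with 1784 and 583 counts of Mmp9 in ALLO and 139 and 69 in ISO.

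Downstream of the receptor, 10 of 14 genes for signalling and migration rose and none fell, with a median log2 change of 3.71. The 4 that did not pass were Gnai2, Gnai3 and Gnb1, which encode G protein subunits used by many cell types, and Arrb1, a beta-arrestin gene. Gnai2 had 9651 and 14670 counts in ALLO and 10203 and 9083 in ISO (edgeR adjusted p = 0.959). Genes largely restricted to leukocytes were among those that rose. Itgal, the alpha chain of the integrin LFA-1, had 5186 and 4387 counts in ALLO and 148 and 67 in ISO (log2 change 5.19 ± 0.47, SE, edgeR adjusted p = 0.00376). Rgs1, a regulator that shortens Gi signals, had 2024 and 1823 counts in ALLO and 24 and 8 in ISO (log2 change 6.61 ± 0.50, SE, edgeR adjusted p = 0.00319).

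Markers of the cells that carry CXCR3 moved with it. All 14 T cell genes rose, with a summed level of 571 and 486 CPM in ALLO and 17.95 and 5.31 CPM in ISO. Trac, which encodes the constant part of the T cell receptor's alpha chain, had 1008 and 1047 counts in ALLO and 20 and 18 in ISO. Cd3d, Cd3e, Cd3g, Cd8a, Cd8b1 and Trbc2 were at 0 counts in ISO replicate 2, the library with 2 counts of Cxcr3. All 7 Th1 and effector genes rose, among them Tbx21, which encodes T-bet, a transcription factor that drives Cxcr3 (173 and 206 counts in ALLO, 5 and 0 in ISO). Tbx21 was picked with its values known. All 6 NK cell genes rose, with summed levels of 96.1 and 82.4 CPM in ALLO and 3.10 and 5.37 CPM in ISO.

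Cxcr3 was also set against T cell transcripts in the same library. Per 1000 summed counts of the 14 T cell genes there were 68.9 (95% counting interval 62.2 to 76.1) and 70.2 (63.3 to 77.7) counts of Cxcr3 in ALLO, against 84.7 (45.1 to 145) in ISO replicate 1 and 22.7 (0.575 to 127) in ISO replicate 2. The ISO intervals take in both ALLO values, so a difference was not detectable at this depth. The log2 difference of 0.67 had an exact permutation p of 1, two-sided, and changed sign to -0.28 without ISO replicate 2. With the NK cell genes added to the T cell genes it was 1.06 (exact permutation p of 1, two-sided). Per 1000 counts of Cd3d, Cd3e and Cd3g alone there were 384 (95% counting interval 347 to 425) and 381 (343 to 421) counts of Cxcr3 in ALLO, against 703 (374 to 1202) in ISO replicate 1, so the level depended on the T cell genes chosen. The 44.2-fold rise of Cxcr3 in the tissue stood beside T cell genes that rose by a median log2 change of 5.74, and the part of T cell number in it was not tested.

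Markers of cells that can make the ligands moved in different directions. Of 9 macrophage and monocyte genes 7 rose, with summed levels of 2808 and 2331 CPM in ALLO and 368 and 229 CPM in ISO, and 2, Itgam and Mertk, did not pass. Of 6 dendritic cell genes 5 rose, with 95.5 and 126 CPM in ALLO and 38.6 and 19.8 CPM in ISO, and 3 rose without ALLO replicate 1. Of 6 endothelial genes 4 fell and none rose, with 652 and 702 CPM in ALLO and 1508 and 1559 CPM in ISO. Of 6 fibroblast genes 1, Pi16, fell and none rose, although 3 rose in DESeq2's Wald test. In 1 gene a rise was also called with scaling by library size alone, in limma-voom, with no count filter, with the replicate block and in each of the fits without ALLO replicate 1, without ISO replicate 1 and without ISO replicate 2. No defining marker of these 4 lists was at 0 in both libraries of a group. Their part in the ligands' rise was not tested.

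**Figure D4:**
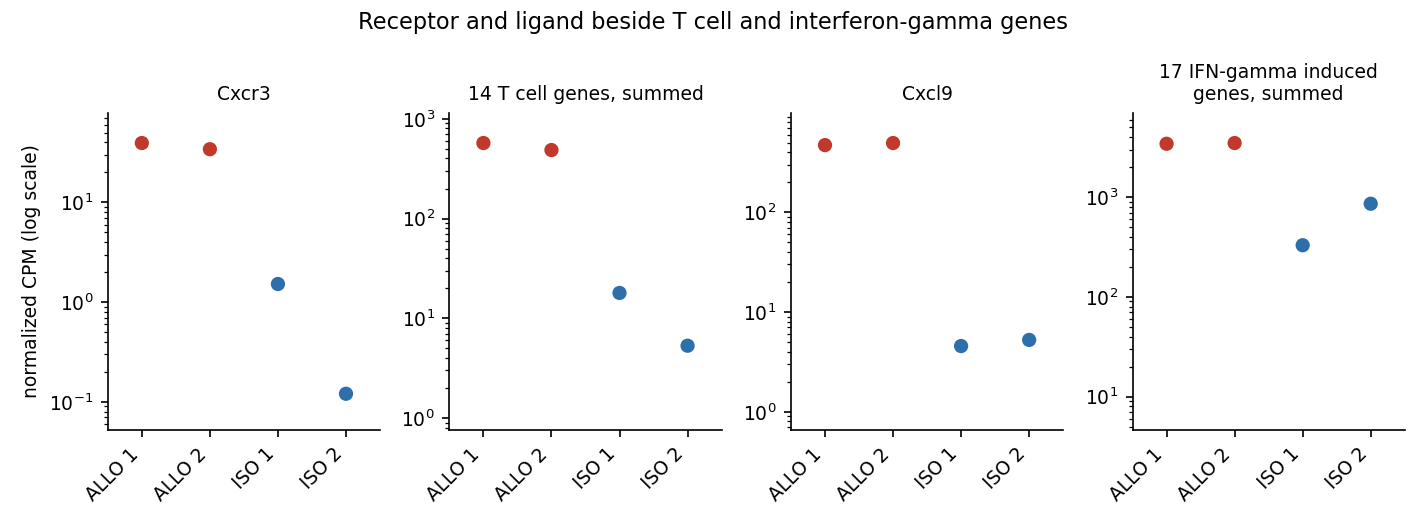
Normalized CPM (log scale, the same number of decades in each panel) of Cxcr3, the sum of 14 T cell genes, Cxcl9 and the sum of 17 interferon-gamma induced genes, 1 point per library. All ALLO points are above all ISO points. Within ISO, Cxcr3 and the T cell genes are higher in replicate 1, at 1.52 and 17.95 CPM, and the interferon-gamma genes are higher in replicate 2, at 859 CPM.

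The genes whose pattern over the 4 libraries was most like that of each member were found among 12385 protein-coding genes with a mean of at least 50 counts, by the distance between log2 CPM values centred on each gene's mean. For Cxcl10 they were Cx3cr1, P2ry14, Lck, Parvg and Il2ra, at distances of 0.119 to 0.233 log2 units. Cx3cr1, the fractalkine receptor gene, had 2448 and 2656 counts in ALLO and 62 and 34 in ISO. For Cxcr3 they were Zc3h12d, Ptpn22, Cst7, Clec4n and Pglyrp2 (0.209 to 0.329). Ptpn22, a phosphatase of T cell receptor signalling, had 1449 and 1337 counts in ALLO and 51 and 4 in ISO. Its lean towards ISO replicate 1 follows from the choice by pattern. For Cxcl9 they were Cemip, Fbn2, Brinp3, Gzmk and Hoxc10 (0.192 to 0.417). The last 4 had 0 counts in ISO and lie near Cxcl9 through the prior count of 2 added before the logarithm. Cemip had 2 and 2 counts in ISO, so its distance depends on the prior count too. So do the distances for Cxcr3, at 2 counts in ISO replicate 2, where Cst7 and Pglyrp2 were at 0. For Cxcl11 they were Ptk7, Nrg2, Ccl17, Dusp2 and Adam12 (0.278 to 0.553). Each was higher in ALLO replicate 2 than in ALLO replicate 1, which the choice by pattern favours. Cxcl11 itself had 0 counts in ISO, so its distances rest on the prior count.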

How the data were processed

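The deposited values are unnormalized read counts for each gene, in the column layout of featureCounts, with exon coordinates, strand and exonic length per the file headers. The submitters' processing notes name mm10, R 4.0.3, DESeq2 1.30.0, featureCounts and Subread 1.6.4. The aligner, annotation release, strand setting and treatment of multimapping reads were not given in the sources used here. Of 54752 IDs, 54723 matched a symbol.

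Genes were filtered with filterByExpr (minimum count 10), scaled by TMM (factors 1.04 and 1.09 in ALLO, 0.926 and 0.946 in ISO) and compared by quasi-likelihood tests in edgeR 4.0.16 (glmQLFit, then glmQLFTest, with no covariate beside group), with Benjamini-Hochberg adjustment over all 16498 genes. Replicates of a group differed by more than sampling noise (chi-square per degree of freedom 139 in ALLO and 41.6 in ISO). The 95% counting intervals treat 2 counts as 1 read pair and cover counting error only, since the labels' protocols name no molecular identifiers. Members and the 18 other gene lists, written from textbook knowledge, were chosen with earlier results of these data known. Beyond the members, every gene of the CXC chemokine, CXC receptor, induction and processing lists could be named, up to 3 genes with the smallest adjusted p of other lists, neighbours within 250 kb and the 5 nearest genes by pattern. Other genes named as not passing, or at 0, were chosen after their values were seen. Alternatives were other scalings, filters and tests (DESeq2 1.42.0, limma 3.58.1), a replicate block, each library left out, halved and thinned counts, and removal of gene classes. Scripts ran in Python 3.11.15 and R 4.3.3, with matplotlib 3.10.9, scipy 1.17.1 and pandas 2.3.3. The values of 1 gene of the induction list are not reported here.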

Additional observations from a re-analysis of the deposited data

How the results depend on the processing

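Cxcl9, Cxcl10 and Cxcr3 stayed higher in ALLO and past the threshold under every alternative run (17, 17 and 16), with log2 changes of 6.51 to 6.81, 5.15 to 5.82 and 4.57 to 8.16. The Cxcr3 extremes were the fits without ISO replicate 2 and without ISO replicate 1. Removing the X and Y genes leaves Cxcr3 without a value. Cxcl11 passed in 16 of 17 alternatives, and with a library left out its adjusted p was 0.0143 to 0.0748. The count of all called genes was 3603 to 4651 with a library left out and 4873 with the replicate block. Same-numbered libraries did not deviate together (correlation 0.10), and the block changed no call of the 4 genes, with log2 changes of 6.62, 5.49 and 5.75 for Cxcl9, Cxcl10 and Cxcr3 and an adjusted p of 0.0152 for Cxcl11. Cxcr3 per T cell gene ranged from -0.28 to 1.61 (log2) with a library left out. Its ratio to Cd3d, Cd3e and Cd3g had no value in ISO replicate 2, where these were at 0. The Cxcl9 to Cxcl10 difference ranged from 0.68 to 1.55. Leaving libraries out of the 2 ratios, and the transcript lengths, were chosen after seeing the data. With 28 counts of Cxcr3 and 58 of Cxcl10 over both ISO libraries, depth in ISO limits these folds.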

Other observations

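The ISO libraries differed from each other in leukocyte transcripts. All 14 T cell genes and all 9 macrophage and monocyte genes had more CPM in ISO replicate 1 than in replicate 2, by medians of 1.19 and 1.68 on the log2 scale. The NK cell genes leaned the other way, with 1 of 6 higher in replicate 1 and a median of -0.37. Of 7 Th1 and effector genes 4 were higher in replicate 1. The 6 B and plasma cell genes summed to 2711 and 926 CPM in ALLO and 78.2 and 0.966 CPM in ISO, and only Mzb1, a chaperone gene of antibody-secreting cells, passed as higher in ALLO (edgeR adjusted p = 0.0287). With all libraries kept, 6 passed with the replicate block, 3 in limma-voom, 3 with no count filter and 2 in DESeq2's Wald test, with halved counts and without immunoglobulin and T cell receptor genes. The number that passed was 6 without ISO replicate 1, 4 without ISO replicate 2 and 0 without ALLO replicate 1. By contrast 16 of 17 interferon-gamma induced genes were higher in ISO replicate 2, with a median log2 difference of -1.23 for replicate 1 minus replicate 2. Among them Iigp1, an interferon-induced GTPase gene, had 9654 and 8561 counts in ALLO and 597 and 2106 in ISO, and Gbp2 had 9126 and 11370 in ALLO and 783 and 1848 in ISO. Both were chosen after their values were seen. Of the remaining lists, 1 of 3 tested adipocyte genes (Cidec) and 1 of 3 tested red cell genes (Alas2) rose. Of 2 tested striated muscle genes 1 (Ckm) fell. The other genes of these lists, 1 adipocyte and 2 striated muscle genes, were too low to test. Over all tested genes, 18.4% rose and 14.8% fell. The adipocyte count was 2 in 6 of the 13 alternatives that kept all libraries. The red cell count was 3 without ISO replicate 1, 2 in DESeq2's Wald test and 0 without ALLO replicate 1, without ALLO replicate 2, with glmTreat and without X and Y genes. The striated muscle call was lost without any 1 library other than ISO replicate 1, and in 6 of the 13 alternatives that kept all libraries.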
